A study of Gallus gallus with 8 samples.

Results

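Of 17108 chicken genes measured, 6 were at 0.5 RPKM or more in both untreated libraries of migrating cranial neural crest cells and below 0.1 RPKM in all 3 libraries from cells grown with 10 µg/ml of DAN. RPKM is a read count scaled to gene length and library size, so levels of genes of different length can be set side by side. The genes were selected on these RPKM values of the untreated and 10 µg/ml libraries, so their high level without DAN and their low level at 10 µg/ml are descriptions and carry no test. The 3 libraries at 1 µg/ml did not enter the choice. The working name for the group was low genes that are shut off, but none was at 0: each library at 10 µg/ml still held 2 to 15 counts of each of the 6 genes.

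Neural crest cells leave the dorsal neural tube and migrate, in the head, in streams towards the branchial arches and face. DAN, encoded by NBL1, is a secreted protein that binds bone morphogenetic proteins (BMPs) and keeps them from their receptors, and BMP signalling acts in crest induction and emigration. The study asked how DAN holds back crest cell invasion. The files give Ensembl gene IDs without symbols, and 0 of 17108 IDs matched the reference table, so no function can be attached to any of the 6 genes here. They are called genes A to F, from the highest to the lowest mean level in untreated cells. Gene A is ENSGALG00000027482, which had the highest untreated mean, and gene E is ENSGALG00000027352, which had the highest mean at 1 µg/ml.

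All groups came from leghorn chicken embryos. Neural tubes of the head at the level of rhombomeres 3 to 5 were freed from ectoderm at stage 8 of the Hamburger and Hamilton series and grown overnight on fibronectin and poly-D-lysine, and the cells that had crawled out and stuck to the dish were lysed after the tubes were taken away. The 2 untreated libraries (replicates 2 and 3) had no DAN, and 3 libraries each (replicates 1, 2 and 3) came from cultures with 1 or with 10 µg/ml of DAN protein in the medium. Each library was made from 200 to 1000 adherent cells by full-length cDNA amplification, a bulk measure in which fewer cells of a type and less RNA per cell cannot be told apart. Library totals ran from 44338765 to 199084828 counts. The untreated pair differed most: its chi-square over genes was 341 per degree of freedom, and pairs within a dose had 67.9 to 148. Cell type markers, including those of neural crest, could not be read without symbols, so the labelled cell type was not checked.

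The 6 genes were few among those expressed without DAN. In untreated cells 10213 genes reached 0.5 RPKM in both libraries. Of these, 107 were below 0.1 RPKM in at least 1 library at 10 µg/ml, 26 in at least 2 and 6 in all 3. Single libraries differed here. At 10 µg/ml 44 of the 10213 genes were below 0.1 RPKM in replicate 1, 67 in replicate 2 and 28 in replicate 3. Replicate 2 had the smallest total. The order did not follow library size: 1 count of gene A was 0.00488 RPKM in replicate 1, the largest, and 0.00726 in replicate 3. Why the libraries differed was not tested. In 35 of the 10213 genes the lower untreated value was over 5 times the highest value at 10 µg/ml. That is the gap the thresholds demand, so the 35 include the 6 genes by construction. By the same thresholds none of the others was below 0.1 RPKM in all 3 libraries at that dose.

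**Figure D1:**
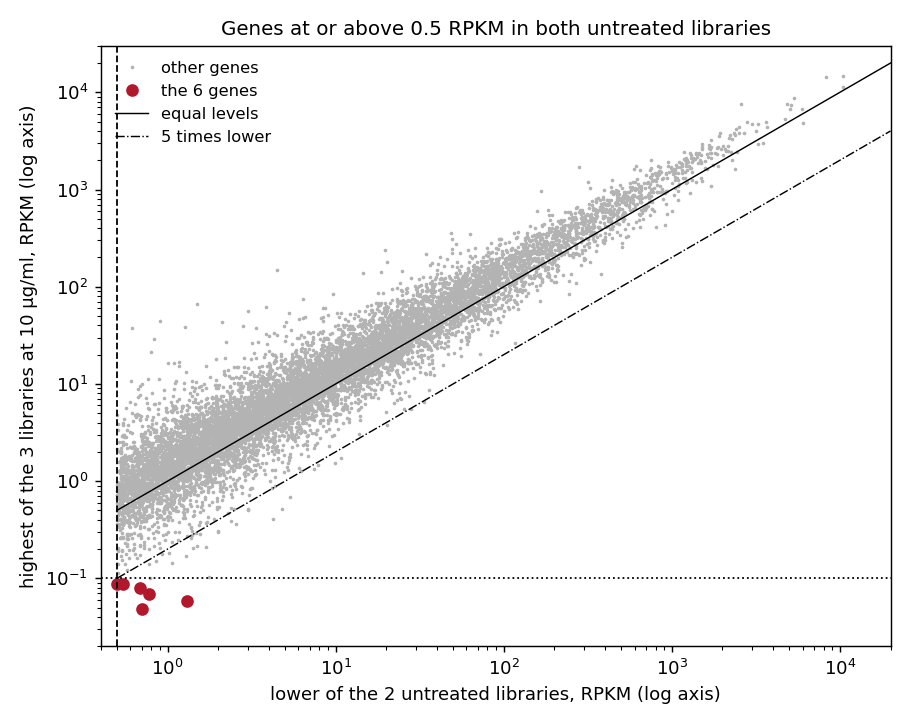
Each point is a gene at or above 0.5 RPKM in both untreated libraries. The x axis gives the lower of the 2 untreated values and the y axis the highest of the 3 values at 10 µg/ml, both in RPKM on log axes. The dashed and dotted lines mark 0.5 and 0.1 RPKM, the solid diagonal marks equal levels and the broken diagonal a level 5 times lower. The 6 genes, in red, lie in the lower left corner, all within the low range of untreated levels.

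The same thresholds set on the other groups found few genes. At 1 µg/ml, 2 of the 10213 genes at or above 0.5 RPKM in both untreated libraries were below 0.1 RPKM in all 3 libraries. Of these 2 genes, 0 were among the 6. The other direction asked for less than 0.1 RPKM in both untreated libraries. It held for 7 of 10164 genes at or above 0.5 RPKM in all 3 libraries at 1 µg/ml. It held for 13 of 10095 genes at or above 0.5 RPKM in all 3 at 10 µg/ml. Between the doses, 0 of 10164 genes were at or above 0.5 RPKM throughout 1 µg/ml and below 0.1 RPKM throughout 10 µg/ml, and 0 of 10095 had the reverse pattern. More libraries had to meet the thresholds between the doses than against untreated cells, so these counts are not on one footing.

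The thresholds cut through a continuous range. Gene E lay on the lower bound, at 0.5 RPKM in untreated replicate 3, and gene F lay closest to the upper bound, at 0.088 RPKM in replicate 1 at 10 µg/ml. Just outside, a gene with 0.784 and 1.085 RPKM in untreated cells had 0.048, 0.101 and 0.083 RPKM at 10 µg/ml. Another gene with 0.033, 0 and 0.066 RPKM at 10 µg/ml had 0.479 and 0.535 RPKM in untreated cells and missed the lower bound. Counting error alone is wider than these gaps: 16 of the 18 values of the 6 genes at 10 µg/ml had a 95% exact Poisson upper limit of 0.1 RPKM or more, and 4 of their 12 untreated values had a lower limit under 0.5 RPKM. Reads were not marked by molecule, so such limits cover only the error of counting reads, called counting error here. They do not cover the sampling of molecules before amplification.

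Gene A had the highest mean without DAN, through untreated replicate 2, and was the most uneven of the 6 between the untreated libraries. It had 2.071 and 0.687 RPKM in untreated replicates 2 and 3, from 215 and 132 counts. At 1 µg/ml it had 0.201, 0.206 and 0.079 RPKM (79, 28 and 12 counts), and at 10 µg/ml 0.073, 0.074 and 0.08 RPKM (15, 6 and 11 counts). Its libraries at 1 µg/ml all lay below both untreated ones, and replicate 3 at 1 µg/ml lay within the range of the higher dose. In untreated replicate 3 it lay below genes B, C and D, and from counts pooled over both untreated libraries it was at 1.17 RPKM, below gene B at 1.32 RPKM. The means were 1.38 ± 0.979 RPKM (SD, n = 2) untreated, 0.162 ± 0.0719 RPKM (SD, n = 3) at 1 µg/ml and 0.0757 ± 0.00379 RPKM (SD, n = 3) at 10 µg/ml.

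Gene B kept its level most closely between the untreated libraries and showed separate levels at each dose. It had 1.358 and 1.298 RPKM in untreated cells (87 and 154 counts). At 1 µg/ml it had 0.367, 0.262 and 0.427 RPKM (89, 22 and 40 counts), and at 10 µg/ml 0.047, 0.04 and 0.059 RPKM (6, 2 and 5 counts). The 3 groups did not overlap, and the lowest untreated value was 22 times the highest at 10 µg/ml, the widest gap among the 6 genes. The means were 1.33 ± 0.0424 RPKM (SD, n = 2), 0.352 ± 0.0835 RPKM (SD, n = 3) and 0.0487 ± 0.00961 RPKM (SD, n = 3).

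Gene C was the most uneven at the lower dose. Its untreated values were 0.98 and 0.706 RPKM (78 and 104 counts). It had 0.086, 0.269 and 0.026 RPKM at 1 µg/ml (26, 28 and 3 counts) and 0.025, 0.048 and 0.047 RPKM at 10 µg/ml (4, 3 and 5 counts). The highest library at 1 µg/ml was 10.3 times the lowest, and replicate 3 there was as low as the libraries at 10 µg/ml, while replicate 2 kept 31.9% of the mean untreated level. The means were 0.843 ± 0.194 RPKM (SD, n = 2), 0.127 ± 0.127 RPKM (SD, n = 3) and 0.04 ± 0.013 RPKM (SD, n = 3).

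Gene D, like gene B, stepped down with dose without overlap. It had 0.77 and 0.842 RPKM in untreated cells (42 and 85 counts). It had 0.262, 0.21 and 0.138 RPKM at 1 µg/ml (54, 15 and 11 counts) and 0.037, 0.047 and 0.069 RPKM at 10 µg/ml (4, 2 and 5 counts). The means were 0.806 ± 0.0509 RPKM (SD, n = 2), 0.203 ± 0.0623 RPKM (SD, n = 3) and 0.051 ± 0.0164 RPKM (SD, n = 3).

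Gene E had the highest mean of the 6 at the lower dose. Gene B was above it in replicate 3 there, at 0.427 against 0.278 RPKM. Gene E overlapped at that dose with untreated cells. It had 0.7 and 0.5 RPKM in untreated cells (31 and 41 counts). It had 0.556, 0.363 and 0.278 RPKM at 1 µg/ml (93, 21 and 18 counts) and 0.034, 0.087 and 0.085 RPKM at 10 µg/ml (3, 3 and 5 counts). Replicate 1 at 1 µg/ml lay between the untreated values, replicates 2 and 3 lay below both, and all 3 lay above every library at 10 µg/ml. The means were 0.6 ± 0.141 RPKM (SD, n = 2), 0.399 ± 0.142 RPKM (SD, n = 3) and 0.0687 ± 0.03 RPKM (SD, n = 3).

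Gene F was the least abundant without DAN. It had 0.542 and 0.597 RPKM in untreated cells (25 and 51 counts). It had 0.126, 0.315 and 0.059 RPKM at 1 µg/ml (22, 19 and 4 counts) and 0.088, 0.056 and 0.049 RPKM at 10 µg/ml (8, 2 and 3 counts). Its 1 µg/ml libraries lay below both untreated ones and ran down into the range of the higher dose. The means were 0.57 ± 0.0389 RPKM (SD, n = 2), 0.167 ± 0.133 RPKM (SD, n = 3) and 0.0643 ± 0.0208 RPKM (SD, n = 3).

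**Figure D2:**
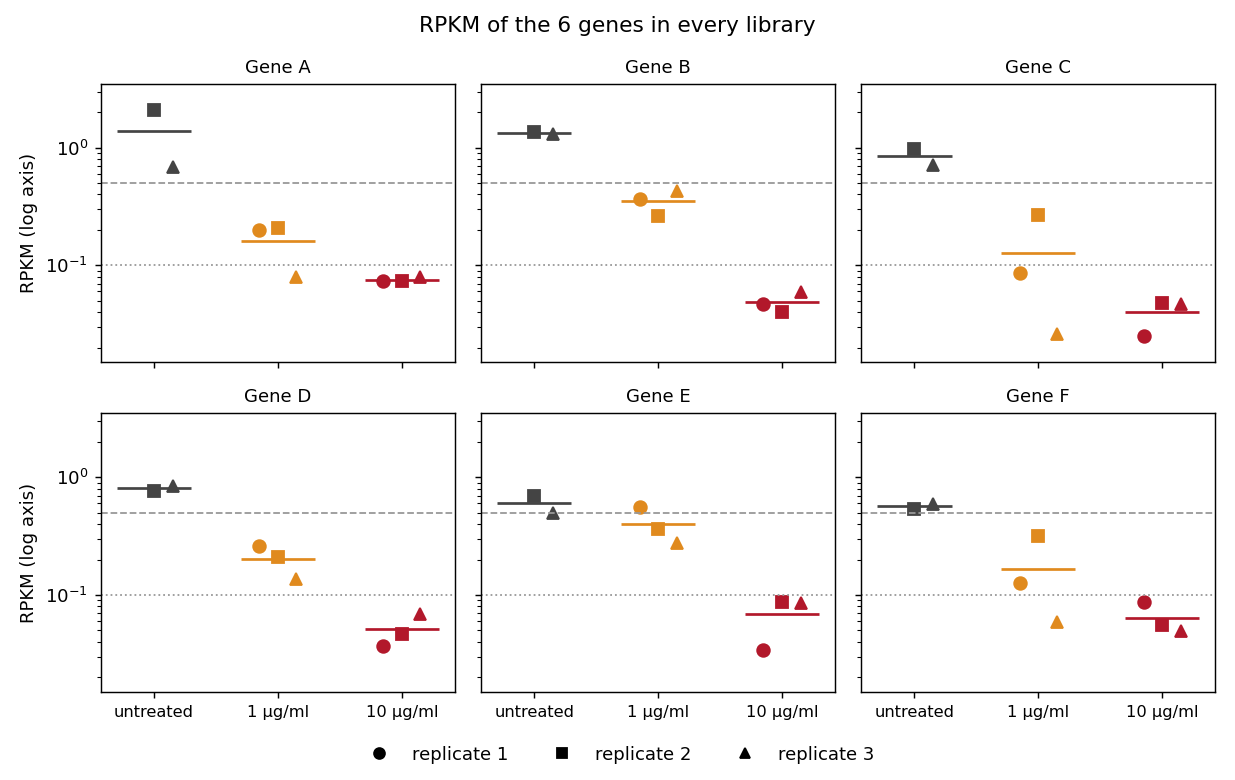
RPKM (log axis) of genes A to F in every library, with 1 panel per gene, groups on the x axis, a symbol for each replicate number and a horizontal line at the group mean. The dashed and dotted lines mark the thresholds of 0.5 and 0.1 RPKM. Genes B and D form 3 separate steps, while gene E at 1 µg/ml reaches into its untreated range and genes A, C and F at 1 µg/ml reach into their 10 µg/ml range.

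In the libraries at 1 µg/ml, which did not choose the genes, most of their values were intermediate. Of their 18 values at 1 µg/ml, 13 lay between the thresholds of 0.1 and 0.5 RPKM, 4 lay below 0.1 RPKM and 1, in gene E, lay at or above 0.5 RPKM. The share of the mean untreated RPKM left at 1 µg/ml was 11.7% for gene A, 15.1% for gene C, 25.2% for gene D, 26.5% for gene B, 29.3% for gene F and 66.5% for gene E, with a median of 25.9%. The lower end of this order rested on single libraries: gene A kept 23.6% without untreated replicate 2, and without replicate 2 at 1 µg/ml gene C kept 6.64% and gene F 16.2%. Counts pooled over libraries put gene C lowest, with untreated cells 7.33 times as high as those at 1 µg/ml, against 6.7 times for gene A. The upper end moved too, although gene E stayed the highest: it kept 79.8% without untreated replicate 2 and 53.4% without replicate 1 at 1 µg/ml. From pooled counts its untreated level was 1.25 times that at 1 µg/ml, with a 95% interval for counting error of 0.927 to 1.68. Genes B, D and F lay within a narrow part of this order, and the libraries of gene F, from 10.4% to 55.3%, spanned those of genes B and D. The median over the 10213 genes at or above 0.5 RPKM in both untreated libraries was 97.8%, and over the 1243 of them whose untreated mean lay within the range of the 6 genes it was 89.8%. Both of these sets had to reach 0.5 RPKM in the untreated libraries, as the 6 genes did. Only the 6 genes also had to be below 0.1 RPKM at 10 µg/ml. They were chosen on both groups, so this difference has no test.

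The share left of these genes differed between the libraries at 1 µg/ml. Replicate 3 was the lowest of the 3 for 5 of the 6 genes, all but gene B, for which it was the highest. The median share left was 24.8% in replicate 1, 29% in replicate 2 and 13.8% in replicate 3. Over the 1243 genes of like untreated level the medians in the same libraries were 91.8%, 87% and 83.2%, so replicate 3 was lowest there as well, by a smaller margin. All 4 values below 0.1 RPKM at this dose were in gene A, gene C and gene F, and 3 of them were in replicate 3. How often replicate 3 was the lowest among other genes is not given here, and differences between the libraries were not tested.

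**Figure D3:**
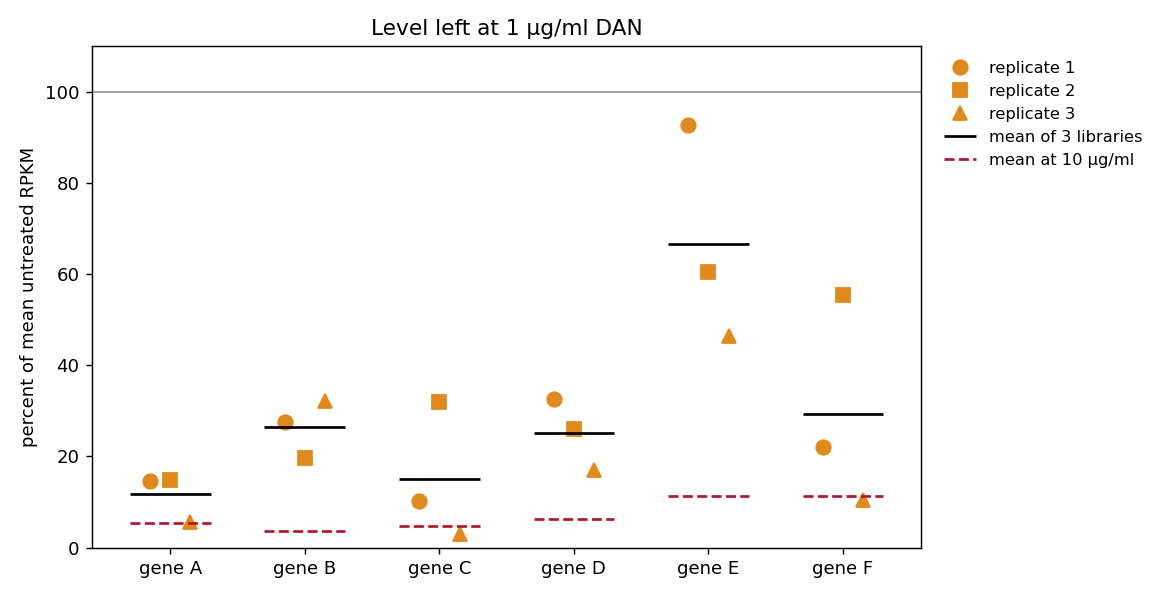
Level of genes A to F in each library at 1 µg/ml as a percent of the gene's mean untreated RPKM (y axis), with a symbol for each replicate, a black line at the mean of the 3 libraries and a dashed red line at the mean at 10 µg/ml. Means run from 11.7% for gene A (23.6% without untreated replicate 2) to 66.5% for gene E (53.4% to 79.8% with 1 library left out). The replicate 3 symbol is the lowest in 5 of the 6 genes.

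The fitted difference between 1 µg/ml and untreated cells was below 0 in all 6 genes and smallest in gene E. The fit was edgeR's quasi-likelihood model on all 8 libraries, over the 14085 genes with enough counts, which include all 6. The log2 fold change was -3.08 ± 0.58 (SE) for gene A, -2.76 ± 0.79 (SE) for gene C, -1.97 ± 0.54 (SE) for gene D, -1.92 ± 0.42 (SE) for gene B, -1.80 ± 0.73 (SE) for gene F and -0.58 ± 0.60 (SE) for gene E. The median over the 6 genes was -1.94, against -0.03 over all genes tested. The untreated libraries chose the genes, and those at 10 µg/ml, which chose them too, share the estimate of the spread, so these values are a description. A gene counts as called at a Benjamini-Hochberg adjusted p under 0.05 over all genes tested. That held for 2 of 6 genes, A and B, against 1.3% of all genes tested, and nothing can be read from that count. In 5 of the 6 genes, all but gene E, the 1 µg/ml libraries lay below both untreated ones, as they did in 19.5% of all genes tested. All genes tested were not chosen on their untreated level, so nothing can be read from this count either.

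Single libraries moved these values. Without untreated replicate 2, where gene A was 3.01 times as high as in replicate 3, gene A had a log2 fold change of -2.09. Without replicate 2 at 1 µg/ml gene C had -3.81 and gene F -2.56. The fold change of gene B stayed between -1.75 and -2.10 with any 1 library left out. The calls of genes A and B were lost without untreated replicate 2, where 3.52% of all genes tested were called lower, and without any 1 library with DAN, where at most 0.0213% were. Without untreated replicate 3 genes A and B were called, and 10.5% of all genes tested were. With the replicate number as a block 0 of 6 genes were called, against 0.0071% of all genes tested (1 gene), and the fold changes of genes A and B were -3.09 and -1.96. With DESeq2 genes A to D, 4 of 6, were called, against 8.13% of all genes tested, and with limma on log2(RPKM + 0.1) the same 4 were, against 1.73%.

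Between the doses, the level at 10 µg/ml was lower than at 1 µg/ml in all 6 genes, and no gene was called. The libraries at 10 µg/ml chose the genes and favour this direction, so these values too are a description. The log2 fold change was -2.81 ± 0.46 (SE) for gene B, -2.59 ± 0.63 (SE) for gene E, -1.99 ± 0.57 (SE) for gene D, -1.65 ± 0.82 (SE) for gene C, -1.29 ± 0.74 (SE) for gene F and -1.10 ± 0.56 (SE) for gene A. Without replicate 2 at 1 µg/ml, the highest library at that dose for genes C and F, gene C had -0.60 and gene F -0.53. The number called was 0 of 6 (edgeR), and 0% of all genes tested were called lower in this comparison. Before adjustment 3 of 6 genes, B, D and E, had a p under 0.05, where 6.52% of all genes tested did with a lower level at 10 µg/ml, and nothing can be read from that count. DESeq2 tested 5 of the 6 genes and called 2, B and E, against 1.24% of all genes it tested. The groups did not overlap for genes B, D and E, 3 of 6, where 14.1% of all genes tested were parted in this direction. All genes tested were not chosen on their level at 10 µg/ml, so nothing can be read from this count either.

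The groups overlapped in different places for different genes. Genes B and D, 2 of 6, were ordered by dose with no overlap between any groups, which held for 4.2% of all genes tested. The thresholds had already set untreated above 10 µg/ml in all 6 genes, and only the place of 1 µg/ml was free. All genes tested met no such condition, so nothing can be read from that count. Genes A, C and F overlapped between 1 and 10 µg/ml and not between 1 µg/ml and untreated. Gene E overlapped between untreated and 1 µg/ml and not between the doses. Whether these patterns differ from each other was not tested.

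At 10 µg/ml the 6 genes kept between 3.66% (gene B) and 11.4% (gene E) of their mean untreated RPKM, with a median of 5.91%. The threshold of 0.1 RPKM bounds these shares from above, and it allows a larger share to genes with a lower untreated mean. Genes E and F had the lowest untreated means and kept the most. The shares and the order of the fold changes are descriptions for that reason. The fitted log2 fold change against untreated cells was -4.72 ± 0.49 (SE) for gene B, -4.41 ± 0.88 (SE) for gene C, -4.18 ± 0.62 (SE) for gene A, -3.97 ± 0.61 (SE) for gene D, -3.17 ± 0.67 (SE) for gene E and -3.09 ± 0.79 (SE) for gene F. The neighbours in this order differ by less than their standard errors, except for genes D and E, which differ by more than either. The error of a difference draws on that of both genes, so this does not part genes D and E. Differences between the genes were not tested. Without untreated replicate 2 gene A had -3.18, near gene F at -3.16 and gene E at -2.93 in the same fit. All 6 of 6 genes were called lower in this contrast, where 9.13% of all genes tested were, and since the same values chose the genes, nothing can be read from that count.

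Pooling the libraries of a group gives the counting error of the level at 10 µg/ml. A gene was chosen only if each library at this dose was below 0.1 RPKM. Setting the pooled level against that threshold is therefore a description and not a test. The 3 libraries together held 32 counts of gene A, 13 of gene B, 12 of gene C, 11 of gene D, 11 of gene E and 13 of gene F. At their mean untreated RPKM they would have held 584, 347, 274, 179, 108 and 107. The pooled level was 0.0497 RPKM (95% exact Poisson interval 0.0265 to 0.085) for gene B, 0.0369 (0.0191 to 0.0645) for gene C and 0.0494 (0.0247 to 0.0885) for gene D, all under 0.1 RPKM. For gene A it was 0.0755 RPKM (0.0517 to 0.107), for gene E 0.0609 (0.0304 to 0.109) and for gene F 0.0691 (0.0368 to 0.118), so counting error alone would allow a level just over the threshold. In 7 of the 18 single values at 10 µg/ml the count was 3 or fewer. Genes B to F each had such a count in replicate 2, which had the smallest total. The others were gene E in replicate 1 and gene F in replicate 3. Differences between the libraries at this dose were not tested.

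**Figure D4:**
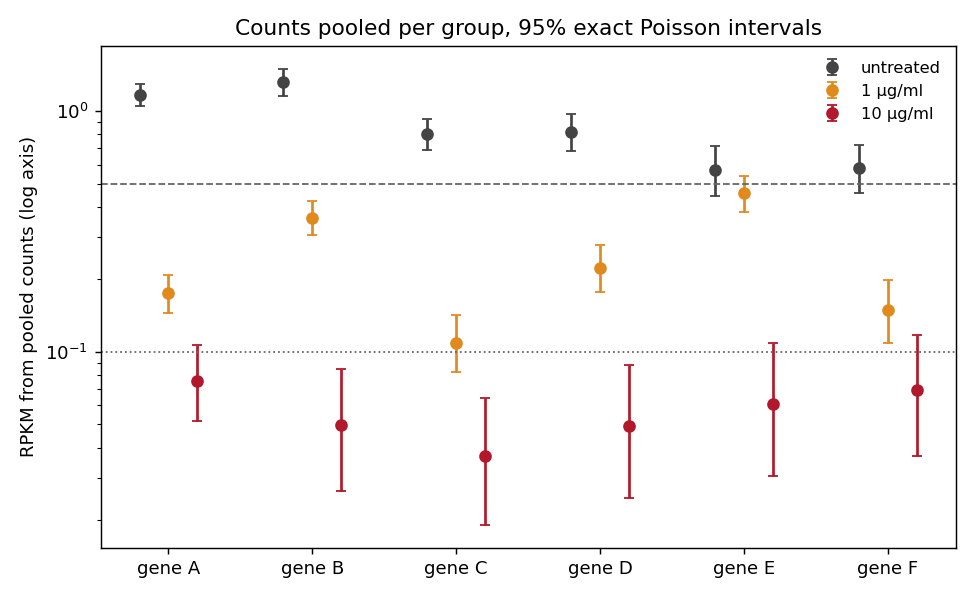
RPKM computed from counts summed over the libraries of each group (y axis, log scale) for genes A to F, with 95% exact Poisson intervals as bars and lines at 0.5 and 0.1 RPKM. The intervals cover the counting error of reads and not the sampling of molecules or the spread between libraries. The genes were chosen on values below 0.1 RPKM at 10 µg/ml, so that line is no test there. At 10 µg/ml the intervals of genes B, C and D end below 0.1 RPKM and those of genes A, E and F cross it, and at 1 µg/ml gene E overlaps its untreated interval.

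The 6 genes tended to be short, at the 12.8th to 43.3rd percentile of length among the 13478 genes with at least 100 counts. The median length of those genes was 2150 bases. Gene lengths implied by counts and RPKM were 1872 bases for gene A, 1156 for gene B, 1436 for gene C, 983 for gene D, 798 for gene E and 832 for gene F, against a median of 2580 bases over the 1243 genes of like untreated level. Their untreated means lay at the 37.4th to 47.4th percentile of all genes measured. A short gene at a given RPKM has few counts: 0.1 RPKM corresponded to 3.45 to 20.5 counts in the libraries at 10 µg/ml. Among the 286 other genes tested that lay within both the length range and the untreated range of the 6, the median log2 fold change was -0.39 at either dose against untreated, compared with -0.02 at 10 µg/ml and -0.03 at 1 µg/ml over all genes tested. Of these 286, 37 (12.9%) were called lower and 7 higher at 10 µg/ml, where 9.13% of all genes tested were called lower. At 1 µg/ml 0 of the 286 were called lower and 2 higher, where 1.3% of all genes tested were called lower. The 286 genes were picked partly by their untreated level, which enters both comparisons, and all genes tested were not. By untreated level alone, 1212 other genes had a median of -0.15 at 10 µg/ml and -0.14 at 1 µg/ml. By length alone, 4358 other genes had -0.06 and -0.08. The part of length in the low levels of the 6 genes was not tested.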

How the data were processed

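Poly(A) RNA of 8 libraries was sequenced. The authors deposited whole-number counts per Ensembl gene ID, not normalized, along with RPKM values. Per the submitters' processing notes the build was galGal4, and the tools, listed there without their roles, included edgeR 3.12.0, TopHat2 2.0.13 and bedtools. The treatment of strands, mates and multiply mapped reads was not given in the sources, and values of overlapping genes or near-identical copies are uncertain for that reason. Over 5133 genes above 5 RPKM everywhere, gene lengths implied by counts, deposited RPKM and TMM-adjusted totals were compared between libraries. The median length of each library lay within 0.00355% of the median over all libraries. Gene lengths were taken from counts and RPKM.

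Genes were chosen on the deposited RPKM. Counts were tested 2-sided with edgeR 4.0.16 in R 4.3.3 (TMM, a mean per group, filterByExpr with a minimum count of 10), after a test on simulated data. Standard errors are the log2 fold change over the root of the F statistic. Alternatives used DESeq2 1.42.0 and limma 3.58.1. No 2 libraries of a group agreed within sampling noise, and each counted as 1 replicate. The labels call them biological replicates.

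The genes, lists and tests were chosen with earlier results of these data known. The rule for naming genes, without symbols, gave the IDs of 2 genes: the one with the highest mean in untreated cells and the one with the highest mean at 1 µg/ml. The marker and BMP lists were not tested for lack of symbols.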

Additional observations from a re-analysis of the deposited data

How the results depend on the processing

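The choice of genes depended on its thresholds. It gave 25 genes with an untreated minimum of 0.3 RPKM, 1 with 1 RPKM, 1 with a maximum of 0.05 RPKM at 10 µg/ml and 33 with 0.2 RPKM, and 10 to 39 with 1 library left out of it, by construction; DESeq2 scaling gave 5 and library totals alone 8, of which 5 were among the 6. With the 6 genes fixed, the number called lower at 10 µg/ml against untreated was 6, with 9.13% of all genes tested. It was 3 with voom quality weights (1.52%). With 1 library with DAN left out it was 3 to 6 (2.21% to 7.25%), and it was 3 without replicate 1 at 10 µg/ml (2.21%). Genes C, E and F, not called with voom quality weights, had log2 fold changes of -4.21, -2.99 and -3.08 there. At 1 µg/ml (2, with 1.3%) the number called was 4 with DESeq2 (8.13%), 4 with limma on log2(RPKM + 0.1) (1.73%) and 1 without a filter on low counts (1.17%). It was 0 with voom quality weights and 0 with only the 2 groups in the fit (0% in both). It was also 0 with any 1 library with DAN left out (at most 0.0213%). For 10 against 1 µg/ml (0) DESeq2 gave 2 (1.24%). The cause was not tested. No log2 fold change of the 6 genes changed sign in any fit, and the median share left at 1 µg/ml stayed between 20.5% and 26.5%. A fit that leaves out an untreated library takes its spread from the dosed libraries.

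With the replicate number as a block, 4 of the 6 genes were called at 10 µg/ml against untreated (4.64% of all genes tested), 0 at 1 µg/ml (0.0071%) and 0 between the doses (0%). Genes E and F, not called at 10 µg/ml under the block, had log2 fold changes of -3.16 and -3.20 there. Same-numbered libraries did not deviate together throughout (r of -0.0252 to 0.185 across genes), so the numbers were not taken as pairs, although 6 of 6 dosed libraries were closest to their own number at the other dose.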
